A study of Mus musculus with 6 samples.

Results

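The cyclic nucleotide phosphodiesterases described here are 10 genes, Pde1a, Pde1b, Pde2a, Pde4a, Pde4b, Pde4d, Pde5a, Pde7b, Pde8b and Pde10a, chosen by gene name from the 47729 genes of the deposited table. They hold 89 of its 115220 transcripts. Ribosome-associated RNA of dopamine D2 receptor-expressing (D2) neurons of the adult mouse medial prefrontal cortex (mPFC) was sequenced in 6 libraries, 3 per group, to ask how loss of the kinase GSK3β alters the RNA that these neurons translate. All mice were C57BL/6 males of 2.5 to 3 months carrying D2Cre, LSL-Flag-Cas9 and RiboTag, so that Cre from the D2 transgene switched on Cas9 and the tagged ribosomal protein Rpl22 in both groups. The Ctrl group received AAV GFP, a virus without a guide RNA, and the Gsk3sKO group received AAV Gsk3sgRNA/GFP, and the mPFC was dissected 3 weeks later. The sources used here do not say whether a library came from 1 mouse or from pooled mice, so every p-value below reflects no more than the variation among these libraries, part of which may be technical.

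Phosphodiesterases hydrolyse cAMP and cGMP and so end the signal that adenylyl and guanylyl cyclases begin. The D2 receptor couples to inhibitory G proteins that lower cAMP production, and the level of cAMP in such a neuron is set by this brake on synthesis together with hydrolysis. The families differ in substrate and control. PDE1 is switched on by calcium and calmodulin, PDE2 is stimulated by cGMP, PDE4, PDE7 and PDE8 hydrolyse cAMP, PDE5 hydrolyses cGMP, and PDE10A acts on both nucleotides and is best known from the medium spiny neurons of the striatum. Most of these genes use several promoters, and the alternative first exons give proteins with different N-termini and a shared catalytic domain.

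Values are FPKM, the fragments per kilobase of transcript and per M mapped fragments, and a gene total is the FPKM summed over the transcripts of a gene. Between 40787 and 55841 transcripts were above 0 per library. Gene totals on the log2 scale correlated between libraries with r from 0.908 to 0.965, with the lowest values for Ctrl replicate 1, at 0.908 to 0.939, and Gsk3sKO replicate 3, at 0.908 to 0.935. The table holds no counts. Steps between its lowest values place the depth at very roughly 28.8 to 47.1 M fragments per library, although only 15.3% to 28.2% of the low values used lay within 0.02 of a whole number of fragments. For Ctrl replicate 3, at 47.1 M, a depth of 23.5 M fitted nearly as well, with 25.4% against 28.2%. The Gsk3b gene total was 35.6, 53.8 and 56.5 FPKM in Ctrl against 36.9, 37.0 and 33.6 FPKM in Gsk3sKO. The groups overlapped, with a log2 fold change of -0.40 (SE 0.19, limma unadjusted p = 0.0648, Benjamini-Hochberg adjusted p = 0.773). The paper judged the knockout in the mPFC by protein staining, in mice without RiboTag. It found GSK3β missing from most neurons that held both Cas9 and the guide RNA. The RNA level given here does not measure the protein. Drd2 itself varied from 1.58 to 14.1 FPKM in Ctrl against from 5.96 to 8.32 FPKM in Gsk3sKO. Over the 6 libraries Slc17a7, a marker of excitatory neurons, was at 192 to 273 FPKM. Gad1, a marker of inhibitory neurons, was at 95.7 to 237 FPKM. Whether this RNA came from D2 neurons or from other cells was not tested. At an unadjusted p under 0.05 in limma, at which 6.56% of all gene totals were called, 669 of 844 of them lower, 2 of 5 microglia markers tested (C1qa and C1qb) and 3 of 6 oligodendrocyte markers (Mog, Mag and Cnp) were lower in Gsk3sKO. The smallest adjusted p in these 2 lists was 0.607, and the ordinary linear model called 2 markers of each. The summed level of the microglia list was 21.1 to 28.0 FPKM in Ctrl and 12.9 to 15.8 FPKM in Gsk3sKO, and that of the oligodendrocyte list 118 to 183 and 128 to 165 FPKM, with Mog listed at 0 in 2 Gsk3sKO libraries. Of the other lists, only the excitatory one had a call, 1 of 6 lower (Tbr1). The part of these cells in the phosphodiesterase values was not tested.

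At the level of whole genes no phosphodiesterase passed the test. In limma on log2(FPKM + 1), 0 of the 10 gene totals had an unadjusted p under 0.05, beside 844 of the 12874 gene totals tested, or 6.56%. None of the 10 separated the groups completely, beside 12% of all gene totals. At shares of 6.56% and 12% a list of 10 genes holds few such cases, so these counts do not set the family apart. The smallest adjusted p among the members was 0.845, and an ordinary linear model without pooling of the spread also called 0 of 10. The fitted log2 fold changes of the members lay between -0.38 and 0.35 with a median of -0.08, and the median over all gene totals tested was -0.06. Summed over the 10 genes, the phosphodiesterase level averaged 322 ± 42.5 FPKM across the 3 Ctrl libraries and 318 ± 26.8 FPKM across the 3 Gsk3sKO libraries (SD). Leaving out a library moved the fitted values of single genes, and turned the sign of 6 of the 10. Because FPKM is relative to the library, fewer cells of a type and less RNA per cell cannot be told apart in any of these values.

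**Figure D1:**
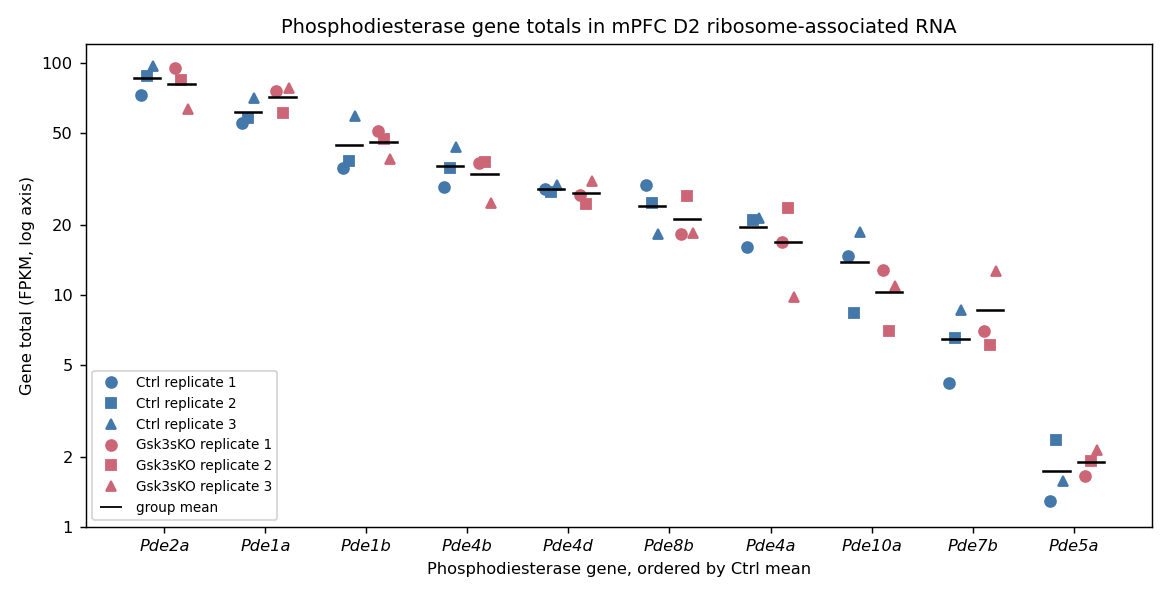
Gene totals of the 10 phosphodiesterases in each library, in FPKM on a log axis, with Ctrl in blue, Gsk3sKO in red, a symbol for each replicate number and a line at each group mean. The genes span from Pde2a, with a Ctrl mean of 86.1 FPKM, to Pde5a, with 1.74 FPKM, and the points of the groups overlap for every gene.

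The 10 genes spanned a wide range of levels. On the FPKM scale, which is per transcript length, the Ctrl means ran from Pde2a at 86.1 through Pde1a at 61.4, Pde1b at 44.2, Pde4b at 36.0, Pde4d at 28.7, Pde8b at 24.3, Pde4a at 19.5, Pde10a at 13.9 and Pde7b at 6.44 to Pde5a at 1.74 FPKM. The Ctrl ranges of neighbours in this order overlapped except between Pde2a and Pde1a and between Pde7b and Pde5a. Pde2a alone made up 24.7% of the summed Ctrl level of all 24 phosphodiesterase genes examined. Of the 14 other phosphodiesterase genes, 5 had a mean of at least 1 FPKM and none of the 5 passed the test in limma. Pde6d, which encodes a carrier of prenylated proteins and not a hydrolysing enzyme, had a Ctrl mean of 12.6 FPKM, followed by Pde11a at 3.54, Pde9a at 3.35, Pde7a at 2.39 and Pde3b at 1.36 FPKM. Pde6b, Pde6c and Pde6g, subunits of the photoreceptor enzyme, were listed at 0 in all 6 libraries.

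The calcium-dependent PDE1 genes were among the most abundant. Pde1a (chr2:79834453-80129458, minus strand, GRCm38) was at 55.4, 58.0 and 71.0 FPKM in Ctrl against 76.1, 60.7 and 78.3 FPKM in Gsk3sKO. Gsk3sKO replicate 2 lay within the Ctrl range, and the log2 fold change was 0.22 (95% interval -0.14 to 0.58, limma unadjusted p = 0.204). Pde1b (chr15:103503034-103530052, plus strand) was at 35.4, 37.9 and 59.2 FPKM in Ctrl against 51.1, 47.2 and 38.7 FPKM in Gsk3sKO. Ctrl replicate 3 was the highest of all 6, every Gsk3sKO value lay inside the Ctrl range, and the log2 fold change was 0.08 (95% interval -0.41 to 0.56). Pde2a (chr7:101421691-101512827, plus strand), whose enzyme lets cGMP accelerate the breakdown of cAMP, was at 72.6, 88.3 and 97.4 FPKM in Ctrl against 95.5, 84.9 and 63.1 FPKM in Gsk3sKO. Its lowest value was that of Gsk3sKO replicate 3, and the log2 fold change was -0.10 (95% interval -0.52 to 0.33).

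The PDE4 genes encode the cAMP-specific enzymes inhibited by rolipram. Pde4d (chr13:108449948-109953461, plus strand) was the steadiest member, at 28.6, 27.7 and 29.8 FPKM in Ctrl against 26.9, 24.7 and 30.9 FPKM in Gsk3sKO. Its within-group SD was 0.12 on the log2 scale, the smallest of the 10, and the 95% interval of its log2 fold change, -0.39 to 0.26, was the narrowest. Pde4b (chr4:102087543-102607259, plus strand) was at 29.2, 35.4 and 43.5 FPKM in Ctrl against 37.1, 37.6 and 24.9 FPKM in Gsk3sKO. Pde4a (chr9:21165714-21213248, plus strand) was at 16.1, 20.99 and 21.6 FPKM in Ctrl against 16.99, 23.8 and 9.76 FPKM in Gsk3sKO. For both genes Gsk3sKO replicate 3 was the lowest of the 6 libraries. The fitted log2 fold changes were -0.12 for Pde4b and -0.27 for Pde4a, and without that library they turned to 0.07 and 0.05.

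Among the other cAMP-hydrolysing genes, Pde8b (chr13:95024454-95250336, minus strand) was at 29.6, 24.8 and 18.3 FPKM in Ctrl against 18.3, 26.6 and 18.5 FPKM in Gsk3sKO, with a log2 fold change of -0.18 (95% interval -0.69 to 0.33) that was -0.033 without Ctrl replicate 1. Pde7b (chr10:20398004-20725078, minus strand) was at 4.18, 6.54 and 8.58 FPKM in Ctrl against 6.99, 6.10 and 12.7 FPKM in Gsk3sKO. The highest value was that of Gsk3sKO replicate 3, and the log2 fold change was 0.35 (95% interval -0.39 to 1.09, limma unadjusted p = 0.309). It was 0.063 without that library and 0.11 without Ctrl replicate 1. Pde10a (chr17:8525372-8986648, plus strand) was at 14.7, 8.33 and 18.7 FPKM in Ctrl against 12.8, 7.01 and 10.97 FPKM in Gsk3sKO. The lowest value of each group belonged to its replicate 2, and the groups overlapped. The log2 fold change of Pde10a was -0.38 (95% interval -1.10 to 0.34, limma unadjusted p = 0.265). Without Ctrl replicate 2 it was -0.68 with an unadjusted p of 0.0451 in limma, the only case among the alternatives in which a member gene total passed the threshold. It was -0.14 without Ctrl replicate 3 and -0.15 without Gsk3sKO replicate 2. Pde5a (chr3:122728947-122859374, plus strand), the cGMP-specific enzyme that sildenafil blocks and that is abundant in vascular smooth muscle, was at 1.29, 2.37 and 1.57 FPKM in Ctrl against 1.65, 1.92 and 2.14 FPKM in Gsk3sKO. Its log2 fold change was 0.10 (95% interval -0.56 to 0.75).

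Pde1b, Pde7b and Pde10a are rich in striatal spiny neurons, so their levels were set beside 12 markers of that cell type. The summed level of the 12 markers was 247, 290 and 549 FPKM in Ctrl against 368, 327 and 515 FPKM in Gsk3sKO, highest in the replicate 3 of each group. Penk alone accounted for 295 and 281 FPKM in these 2 libraries, and not every marker followed the sum. Meis2 was lowest in Ctrl replicate 3, at 31.5 FPKM, and Gng7 was lowest in Gsk3sKO replicate 3, at 6.62 FPKM, where Rgs9 was at 9.35 FPKM. None of the 12 passed the test, and Adora2a was listed at 0 in Ctrl replicate 1, which also had the lowest Drd2, Pde1b and Pde7b. Ctrl replicate 3 had the highest Pde1b, Pde10a and Drd2, while Pde7b was highest in Gsk3sKO replicate 3, where Pde1b was at 38.7 FPKM. The part of these markers in the phosphodiesterase levels was not tested. Over the 6 libraries the gene totals most like Pde10a on the log2 scale, of 12873 compared, were Tsc22d4 with Pearson's r of 0.986, Mcm5 with 0.982 and Olfm2 with 0.976. These correlations rest on 6 libraries that share their depth and composition with all genes and are given as a description.

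**Figure D2:**
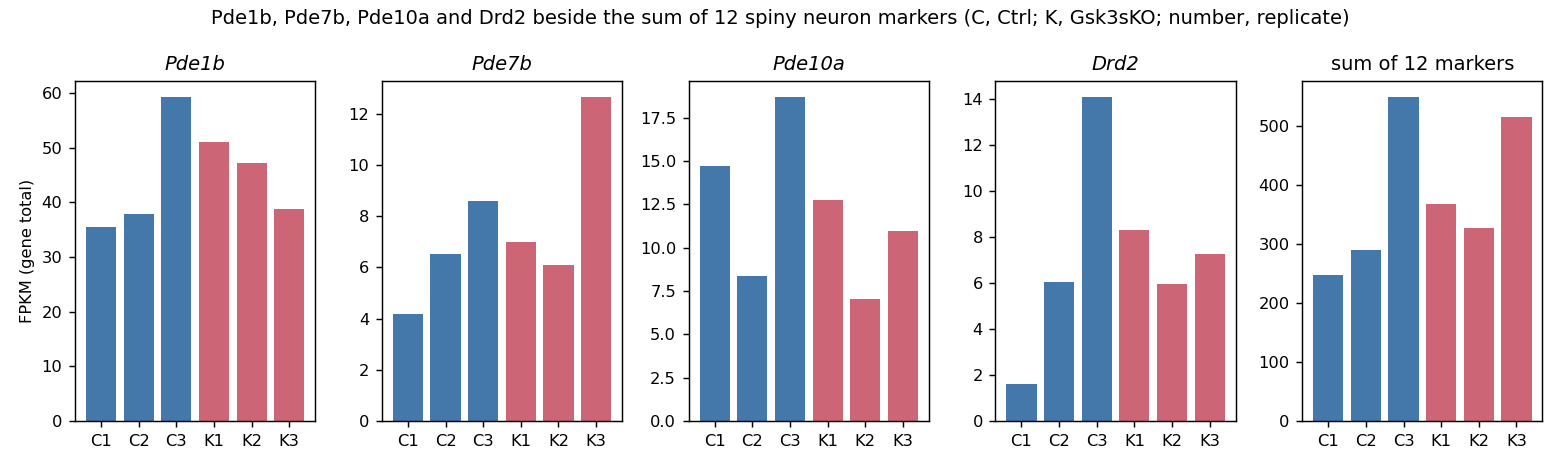
Gene totals in FPKM of Pde1b, Pde7b, Pde10a and Drd2, and the summed FPKM of 12 markers of striatal spiny neurons, in each library (C, Ctrl, blue; K, Gsk3sKO, red; the number is the replicate). The marker sum is 549 FPKM in Ctrl replicate 3 and 515 FPKM in Gsk3sKO replicate 3, against at most 368 FPKM in the other libraries, with Penk at 295 and 281 FPKM of those sums.

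The genes that make cAMP and cGMP and those that respond to them gave no call either. Of 16 listed adenylyl and guanylyl cyclase genes 11 were tested, of 16 effectors such as protein kinase A subunits, Epac proteins and HCN channels 13 were tested, and of 10 calmodulin and scaffold partners 9 were tested. In limma, 0 of the 11, 0 of the 13 and 0 of the 9 had an unadjusted p under 0.05, beside 6.56% of all gene totals, a share at which lists of this size hold few calls, and the ordinary linear model also called 0 of each. The median log2 fold changes of the tested genes were 0.04 for the cyclases, 0.01 for the effectors and -0.04 for the partners.

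Some single transcripts passed the test although no gene total did. Of the 89 member transcripts 81 were above 0 in some library and 29 had a mean of at least 1 FPKM and were tested. In limma, 4 of the 29 had an unadjusted p under 0.05, of which 1 was higher and 3 were lower in Gsk3sKO, beside 1200 of 21584 transcripts, or 5.56%. None of the 29 had an adjusted p under 0.05. In 6 of the 29 the groups did not overlap, beside 11.2% of all transcripts tested. The 4 called transcripts belong to Pde2a and Pde8b. The FPKM of 3 of them was listed at 0 in every library of a group. These 3 thus passed the filter on the mean only through the other group, and their calls are not independent of that filter. Over all transcripts tested, called or not, 2.28% were listed at 0 throughout a group, which is not a share of called transcripts. Since the table gives no counts, the 3 transcripts are described by their listed values and the test, with no fold.

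Sequences that tell the transcripts apart are given with the results that turn on them. They are coding bases of the GENCODE M21 transcripts on GRCm38, which holds 87 of the 89 member transcripts, written 5′ to 3′ in lower case with the start codon in capitals. The pairs shown were chosen after their values were seen.

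The listed division of Pde5a between its transcripts differed between the groups while the gene totals overlapped. Pde5a-201 (ENSMUST00000066728) was listed at 1.29, 1.14 and 1.19 FPKM in Ctrl but at 0 throughout Gsk3sKO. Pde5a-204 (ENSMUST00000200389) was at 0, 1.16 and 0.381 FPKM in Ctrl against 1.65, 1.92 and 2.14 FPKM in Gsk3sKO. Every Gsk3sKO library thus lay above every Ctrl library for Pde5a-204 and below it for Pde5a-201 (2-sided exact permutation test, p = 0.1 for each, the smallest p that 3 libraries against 3 allow). Pde5a-204 held 0%, 48.8% and 24.3% of the gene total in Ctrl and 100% in each Gsk3sKO library after rounding. Pde5a was the only member whose most abundant transcript had non-overlapping shares. For the other 9 the shares overlapped, but that of Pde1b, which has only 1 listed transcript, could not do otherwise. In limma, the log2 fold change of Pde5a-204 was 1.01 (SE 0.45, unadjusted p = 0.0651, adjusted p = 0.842). Pde5a-201 had a mean of 0.603 FPKM and did not enter that test, and without the filter its unadjusted p was 0.0119 with an adjusted p of 0.742 in limma. The Pde5a transcripts had already stood out in earlier results of these data.

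The 2 transcripts have 21 exons each, and 19 of these are identical. They differ in the first exon, with start sites 623 bases apart, and by 2 bases at the end of the last. The coding sequence differs only in the first coding bases, 122 of them in Pde5a-201 (chr3:122729246-122729367) and 26 in Pde5a-204 (chr3:122730631-122730656), both on the plus strand.
Pde5a-201: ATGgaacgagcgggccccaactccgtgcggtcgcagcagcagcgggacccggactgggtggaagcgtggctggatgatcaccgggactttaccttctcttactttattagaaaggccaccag
Pde5a-204: ATGttgccctttggagacaaaacgag
Only 423 of the 6939 bases of Pde5a-201 and 1087 of the 7603 bases of Pde5a-204 lie outside the other transcript, so the division of the total between them rests on these parts. At the approximate depths, the listed values correspond to about 404 and 253 fragments of Pde5a-201 in Ctrl replicates 1 and 2 and to about 421 to 518 fragments of Pde5a-204 per Gsk3sKO library, most of them in shared sequence. The summed level of 6 pericyte and smooth muscle markers was 8.83, 33.6 and 17.9 FPKM in Ctrl against 11.02, 18.6 and 36.1 FPKM in Gsk3sKO. None of the 4 of them tested passed, Kcnj8 was listed at 0 in Gsk3sKO replicate 2 and Tagln in Gsk3sKO replicate 3, and the groups overlapped in this sum although not in the transcript share.

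**Figure D3:**
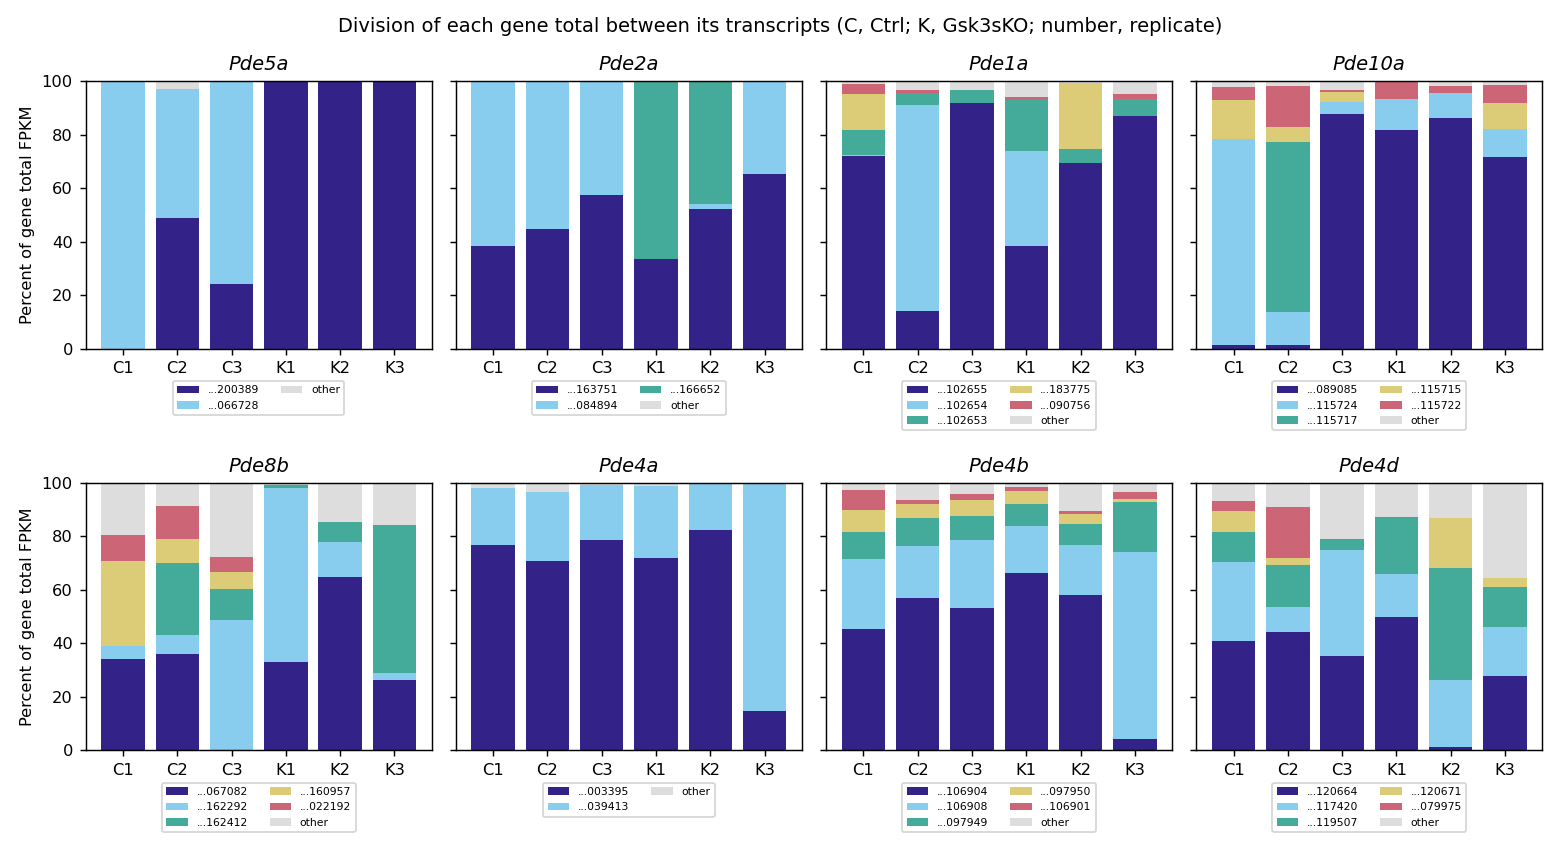
Percent of the gene total FPKM held by each gene's most abundant transcripts in each library (C, Ctrl; K, Gsk3sKO; the number is the replicate; the key gives the last digits of the Ensembl transcript number). For Pde5a, ENSMUST00000200389 holds 0% to 48.8% in Ctrl and, after rounding, 100% in all 3 Gsk3sKO libraries. The division of Pde1a, Pde10a and Pde8b differs widely between libraries of the same group.

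The most abundant Pde2a transcript overlapped between the groups, while the other 2 passed the test in opposite directions. Pde2a-201 (ENSMUST00000163751) was at 27.8, 39.4 and 55.8 FPKM in Ctrl against 32.0, 44.4 and 41.1 FPKM in Gsk3sKO, with a log2 fold change of -0.02 (SE 0.28). ENSMUST00000084894 was at 44.8, 48.9 and 41.6 FPKM in Ctrl against 0.0217, 1.31 and 22.0 FPKM in Gsk3sKO, all below the Ctrl range. Its log2 fold change was -3.60 (SE 1.08, limma unadjusted p = 0.0148, adjusted p = 0.801). Pde2a-202 (ENSMUST00000166652) was listed at 0 in all 3 Ctrl libraries and at 63.4, 39.1 and 0 FPKM in Gsk3sKO replicates 1 to 3, so it was absent from the list where ENSMUST00000084894 kept 22.0 FPKM. Pde2a-202 entered the test only through its Gsk3sKO values. It passed the threshold narrowly (limma unadjusted p = 0.0474, adjusted p = 0.842), and leaving out any library but Gsk3sKO replicate 3 raised its p to at least 0.107. The call was also lost with a pseudocount of 0.1, with a mean of at least 5 FPKM and in the ordinary linear model. Summed, these 2 transcripts were at 44.8, 48.9 and 41.6 FPKM in Ctrl against 63.4, 40.4 and 22.0 FPKM in Gsk3sKO, and the groups overlapped. ENSMUST00000084894 is not in GENCODE M21 and its sequence is not shown. Pde2a-202 has no bases of its own against Pde2a-201, and the coding sequence of Pde2a-201 is longer by the following 12 bases in exon 14 (chr7:101503287-101503298, plus strand).
Pde2a-201, exon 14: cccgacttccag

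In Pde8b, 2 transcripts were lower in Gsk3sKO while the gene total overlapped. Pde8b-201 (ENSMUST00000022192) was listed at 2.87, 3.02 and 1.06 FPKM in Ctrl but at 0 throughout Gsk3sKO (limma unadjusted p = 0.0105, adjusted p = 0.77). Pde8b-206 (ENSMUST00000160957) was at 9.37, 2.22 and 1.15 FPKM in Ctrl against likewise at 0 in Gsk3sKO (limma unadjusted p = 0.0189, adjusted p = 0.819). They made up 5.10% and 9.35% of the Pde8b level over the 6 libraries, and both passed the filter on the mean only through Ctrl. The most abundant transcript, Pde8b-202 (ENSMUST00000067082), was at 10.1, 8.92 and 0.0139 FPKM in Ctrl against 6.08, 17.3 and 4.89 FPKM in Gsk3sKO, so its lowest value was that of a Ctrl library. Its log2 fold change was 0.92 (SE 1.01).

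Pde8b-201 and Pde8b-202 share 20 of 21 exons and the same start site. They differ at 2 separate places. Pde8b-202 holds 141 coding bases in exon 7 (chr13:95086728-95086868, minus strand) that Pde8b-201 lacks. Pde8b-201 holds 60 coding bases in exon 2 (chr13:95123264-95123323, minus strand) that Pde8b-202 lacks. Pde8b-206 starts 27461 bases upstream, and its first 27 coding bases (chr13:95250134-95250160, minus strand) are its own against Pde8b-201. It is also much shorter, with 13 exons and 987 coding bases against 21 exons and 2514 coding bases. Of the coding bases of Pde8b-201, 1554 are not in Pde8b-206, among them those of exons 15 to 21.
Pde8b-202, exon 7: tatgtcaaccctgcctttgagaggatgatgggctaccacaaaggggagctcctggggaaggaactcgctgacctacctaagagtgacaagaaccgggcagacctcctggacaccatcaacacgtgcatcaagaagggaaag
Pde8b-201, exon 2: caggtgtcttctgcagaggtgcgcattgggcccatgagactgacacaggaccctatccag
Pde8b-206, exon 1: ATGgaccagcagcagagcgtgcgccag

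**Figure D4:**
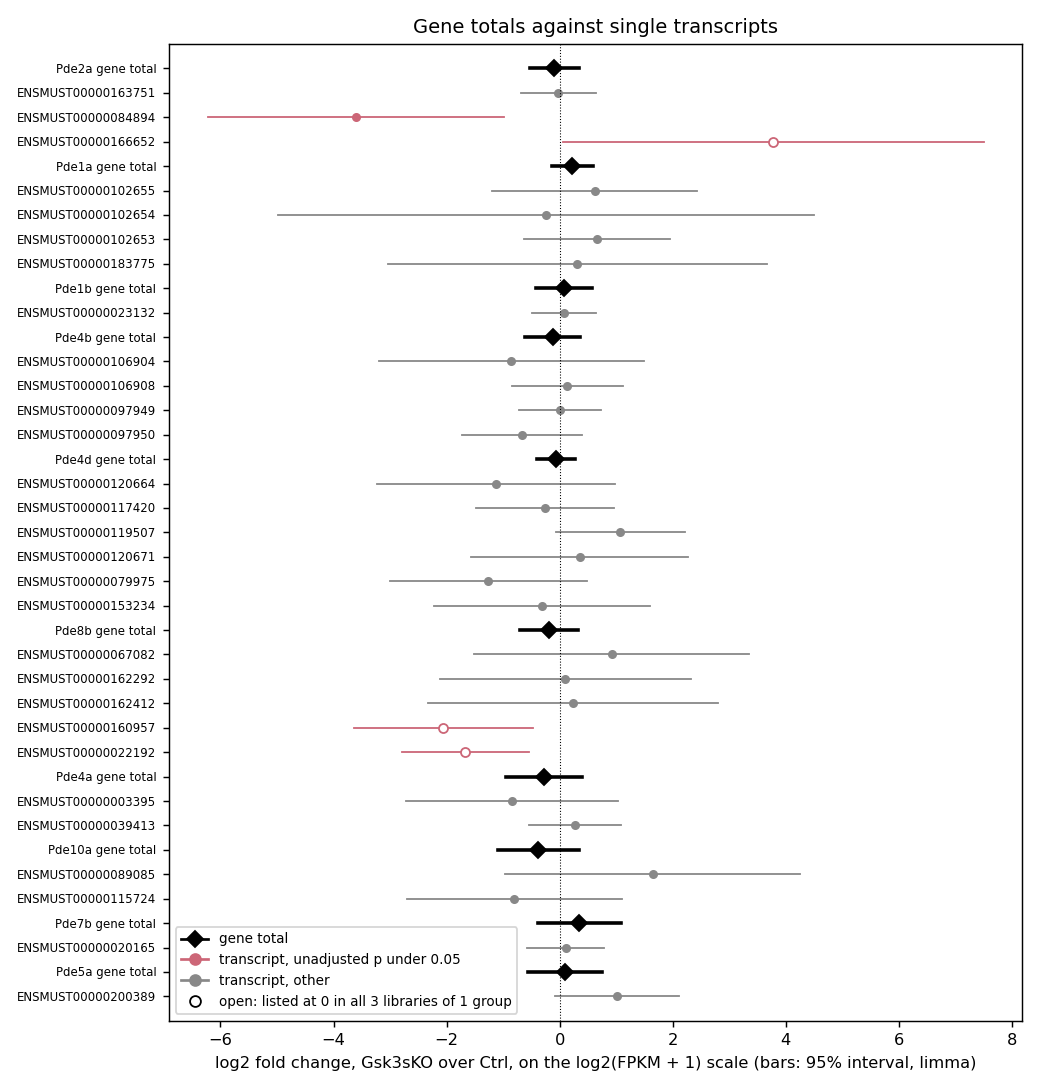
Log2 fold changes of Gsk3sKO over Ctrl on the log2(FPKM + 1) scale with 95% intervals from limma, for the 10 gene totals (black diamonds) and their 29 tested transcripts (circles, red where the unadjusted p is under 0.05, open where the transcript is listed at 0 in all 3 libraries of a group, whose size depends on the added 1). The gene totals lie between -0.38 and 0.35, and the intervals of most single transcripts are wider than that of their gene total.

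The division of a total between transcripts also differed from library to library within a group. The share of the most abundant transcript varied by more than 50 percentage points over the 6 libraries in 6 of the 10 genes. The median within-group SD on the log2 scale was 0.31 for the 10 member gene totals and 0.29 for all gene totals. For transcripts it was 1.05 for the 29 members and 0.60 for all transcripts tested.

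For Pde1a most of this spread lay between transcripts with the same annotated coding sequence. Pde1a-206 (ENSMUST00000102655) held 72.1%, 14.1% and 91.6% of the gene total in Ctrl and 38.2%, 69.2% and 86.8% in Gsk3sKO. In Ctrl replicate 2 most of the remainder was ENSMUST00000102654, at 44.7 FPKM, which was listed at 0 in Ctrl replicate 3. These 2 transcripts, ENSMUST00000102653 and ENSMUST00000183775 share an identical coding sequence of 1635 bases without the stop codon and made up 95.3% of the gene total. Of them, ENSMUST00000183775 is annotated as a target of nonsense-mediated decay. It held 13.3% of the gene total in Ctrl replicate 1 and 24.8% in Gsk3sKO replicate 2. Summed, the 4 were at 52.7, 55.5 and 68.5 FPKM in Ctrl against 70.7, 60.3 and 73.1 FPKM in Gsk3sKO, and the groups overlapped (2-sided exact permutation test, p = 0.2). Pde1b has a single listed transcript, which carries its whole total.

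Pde10a was divided differently in Ctrl replicates 1 and 2 than in the other 4 libraries. Pde10a-202 (ENSMUST00000089085) was at 0.209, 0.104 and 16.3 FPKM in Ctrl against 10.4, 6.03 and 7.87 FPKM in Gsk3sKO. Its share was 1.42%, 1.25% and 87.5% in Ctrl and 81.8%, 86.0% and 71.7% in Gsk3sKO, so that Ctrl replicate 3 had the highest share of all. In Ctrl replicate 1 the largest share, 76.9%, belonged to Pde10a-208 (ENSMUST00000115724). In Ctrl replicate 2 63.6% belonged to ENSMUST00000115717, annotated as a target of nonsense-mediated decay and listed at 0 in the other 5 libraries. The log2 fold change of Pde10a-202 was 1.65 (SE 1.08, limma unadjusted p = 0.175), and without Ctrl replicate 3 it was 2.95 with an unadjusted p of 0.000753 in limma. Leaving out Ctrl replicate 1 or 2 instead gave 1.03 and 0.96, both short of the threshold. Pde10a-202 and Pde10a-208 start 274892 bases apart and give the enzyme different N-termini. The first coding exons are shown for Pde10a-202 (chr17:8802079-8802145) and Pde10a-208 (chr17:8527019-8527115), both on the plus strand.
Pde10a-202, exon 1: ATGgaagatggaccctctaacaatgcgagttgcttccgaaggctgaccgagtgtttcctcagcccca
Pde10a-208, exon 1: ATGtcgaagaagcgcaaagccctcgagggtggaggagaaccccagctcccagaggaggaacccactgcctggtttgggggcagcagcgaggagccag

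In Gsk3sKO replicate 3 the division of Pde4a, Pde4b and Pde7b departed from that of the other 5 libraries. Pde4a-201 (ENSMUST00000003395), a form that starts far downstream in the gene, held 70.7% to 82.5% of the total in the other libraries and 14.6% in that one, where it was at 1.43 FPKM. The longer Pde4a-202 (ENSMUST00000039413) held 85.4% there. Pde4b-205 (ENSMUST00000106904) was at 13.3, 20.1 and 23.1 FPKM in Ctrl against 24.7, 21.8 and 1.09 FPKM in Gsk3sKO. Its share in Gsk3sKO replicate 3 was 4.38%, while Pde4b-207 (ENSMUST00000106908), which starts 166515 bases upstream, held 69.7% there. Pde7b-201 (ENSMUST00000020165) held 45.3% of its total in Gsk3sKO replicate 3 and at least 80.8% in the others. None of these transcripts passed the test, and without that library the log2 fold changes of Pde4a-201 and Pde4b-205 turned from -0.84 to 0.08 and from -0.86 to 0.32. The first coding bases that set these forms apart lie at chr9:21197113-21197178 for Pde4a-201, at chr4:102421771-102421820 for Pde4b-205 and at chr4:102255221-102255456 for Pde4b-207, all on the plus strand.
Pde4a-201, exon 1: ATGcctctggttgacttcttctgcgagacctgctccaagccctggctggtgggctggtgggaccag
Pde4b-205, exon 1: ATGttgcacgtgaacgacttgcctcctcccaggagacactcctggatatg
Pde4b-207, exon 1: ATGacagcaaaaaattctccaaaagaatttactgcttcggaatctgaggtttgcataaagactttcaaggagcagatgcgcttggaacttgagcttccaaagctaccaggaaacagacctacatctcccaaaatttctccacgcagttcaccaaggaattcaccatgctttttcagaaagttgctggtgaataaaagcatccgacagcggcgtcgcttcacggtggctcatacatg

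Pde4d combined the steadiest total with a shifting division. Pde4d-207 (ENSMUST00000120664), its most abundant transcript, was at 11.7, 12.3 and 10.5 FPKM in Ctrl against 13.5, 0.337 and 8.62 FPKM in Gsk3sKO, with a log2 fold change of -1.13 (SE 0.87) that was -0.081 without Gsk3sKO replicate 2 and -1.80 without Gsk3sKO replicate 1. Pde4d-205 (ENSMUST00000119507), named after its values were seen, was at 3.15, 4.42 and 1.07 FPKM in Ctrl against 5.68, 10.3 and 4.71 FPKM in Gsk3sKO. The groups did not overlap, and the log2 fold change was 1.07 (SE 0.47, limma unadjusted p = 0.0619, adjusted p = 0.842). Pde4d-202 (ENSMUST00000079975), also named after its values were seen, was at 1.11, 5.31 and 0.0902 FPKM in Ctrl against 0.0474, 0 and 0.00596 FPKM in Gsk3sKO, again without overlap, and missed the threshold with an unadjusted p of 0.127 in limma.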

How the data were processed

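The authors deposited FPKM for each transcript and library. Per the submitters' processing notes, HISAT2 2.1.0, SAMtools 1.9 and StringTie 1.3.4d were used on GRCm38, with settings not given in the sources used here. StringTie divides reads between overlapping transcripts by estimate, so transcripts of a gene are less certain than their sum. The deposited fold, p-value and q-value columns were not used. Gene totals are sums of FPKM over the transcripts of a gene ID. The groups were compared by limma 3.58.1 under R 4.3.3 (lmFit, eBayes with a trend) on log2(FPKM + 1), for features with a mean of at least 1 FPKM over 6 libraries, fitted on the whole table with Benjamini-Hochberg adjustment. A call was an unadjusted p under 0.05. This scale understates changes of low values. Exact permutation tests were 2-sided. The model was tested on simulated data. Groups came from the sample labels. Tables and figures used matplotlib 3.10.9, scipy 1.17.1, pandas 2.3.3 and numpy 2.4.6 with Python 3.11.15. Named were all 10 genes, each gene's most abundant transcript, every member transcript with a call, any call among cyclases, effectors and partners (there were none), the other phosphodiesterases with a mean of at least 1 FPKM and the 3 genes most like Pde10a. Members and lists were chosen with earlier results of these data known. Alternatives were another pseudocount, other filters, rescaling, an ordinary linear model, a replicate block and leaving out each library.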

Additional observations from a re-analysis of the deposited data

How the results depend on the processing

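The count of phosphodiesterase gene totals called was 0 under each alternative to the main analysis except when a library was left out, where it ranged from 0 to 1 (Pde10a, without Ctrl replicate 2). The count of transcripts called, 4 of 29, was 7 of 81 without a filter on low values and 1 of 16 with a mean of at least 5 FPKM, and ranged from 2 to 6 when a library was left out. When only transcripts with a mean of at least 1 FPKM were summed, 1 of the 10 totals, that of Pde5a, no longer overlapped between groups. This filter leaves Pde5a-204 as the only Pde5a transcript, so that outcome repeats the result of this transcript and says nothing further about the gene total. Over all transcripts tested, 1200 were called, against 1917 without a filter and 590 with a mean of at least 5 FPKM. Of all gene totals called, 175 were higher and 669 lower, and 254 and 549 after median-ratio rescaling, which moved the median log2 fold change of all gene totals from -0.06 to -0.02 and called the same number of members, 0. The labels do not say whether same-numbered libraries belong together. Deviations of same-numbered libraries correlated with r of -0.03, -0.01 and -0.08, and those of differently numbered libraries with r from -0.03 to 0.05. With 3 libraries per group these values cannot decide whether the samples were paired. With the replicate number as a block, 0 gene totals and 5 transcripts of the members were called.

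Of 119 alternative log2 fold changes of the 10 gene totals, 109 kept direction and side of the threshold, 1 passed it and 9 changed sign, all 9 on leaving out a library. Leaving out a library gave ranges of -0.061 to 0.30 for Pde1b and its single transcript ENSMUST00000023132, -0.22 to 0.074 for Pde2a, -0.55 to 0.051 for Pde4a, -0.26 to 0.069 for Pde4b, -0.15 to 0.0083 for Pde4d -0.023 to 0.26 for Pde5a, 0.15 to 0.33 for Pde1a, 0.063 to 0.56 for Pde7b, -0.37 to -0.033 for Pde8b and -0.68 to -0.14 for Pde10a. The positive ends for Pde2a, Pde4a and Pde4b came without Gsk3sKO replicate 3. Of 165 values of the 14 named transcripts 140 were unchanged in direction and call and 11 changed sign. The ranges without a library were -0.22 to 1.21 for Pde1a ENSMUST00000102655, -0.27 to 0.22 for Pde2a ENSMUST00000163751 (0.025 after rescaling), -1.46 to 0.083 for Pde4a ENSMUST00000003395, -1.49 to 0.32 for Pde4b ENSMUST00000106904, -0.082 to 0.30 for Pde7b ENSMUST00000020165 -0.20 to 1.53 for Pde8b ENSMUST00000067082, -1.80 to -0.081 for Pde4d ENSMUST00000120664 and 0.96 to 2.95 for Pde10a ENSMUST00000089085. The call of Pde2a ENSMUST00000084894 was lost in the ordinary linear model and without Gsk3sKO replicate 2, and that of Pde2a ENSMUST00000166652 with a pseudocount of 0.1, with a mean of at least 5 FPKM, in the ordinary linear model and without any library except Gsk3sKO replicate 3. Pde5a ENSMUST00000200389 passed the threshold without a filter, in the ordinary linear model and without Ctrl replicate 2. The cause of these changes was not tested. The 2 calls of Pde8b held under each alternative in which they were tested. Part of this was fixed in advance. Both transcripts were listed at 0 throughout Gsk3sKO, so leaving out a Gsk3sKO library could not move their log2 fold change. With a mean of at least 5 FPKM neither was tested. Depth is known only roughly, so a value listed at 0 carries no upper limit here.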
